A study of Danio rerio with 3 samples.

Results

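The genes described here are the lens crystallin genes and the lens membrane and cytoskeleton genes that accompany them, measured in zebrafish (Danio rerio) embryos after knockdown of granulin A. Members were all genes on the array whose RefSeq symbol begins with crya, cryb, cryg, mipa, mipb, lim2, bfsp or lgsn. The array held 41 such genes on 52 probes, out of 11668 named genes and 43603 probes, while the RefSeq table lists 71. They comprised 3 alpha, 9 beta and 20 gamma crystallin genes, crybgx, and 8 genes of lens membranes and cytoskeleton.

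RNA of embryos injected at the 1-cell stage with 2 to 3 nl of MO-grnA, a morpholino (antisense oligomer) against granulin A, was compared with RNA of untreated wild-type embryos. Both groups were whole embryos at 22 hours post fertilization (hpf), each replicate a pool of 200 embryos per group; no strain is named in the labels. On each of 3 two-colour Agilent arrays, the biological replicates, morphant RNA was hybridised against wild-type RNA. The morphant dye was Cy5 in the first pair of arrays and Cy3 in replicate 3, a dye swap. The wild-type embryos had no injection, so an effect of injection cannot be told apart from an effect of the morpholino sequence.

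Crystallins are the soluble proteins that fill lens fibre cells and give the lens its refractive power. Alpha crystallins are small heat shock proteins that hold other proteins in solution, whereas beta and gamma crystallins share a fold and pack as oligomers and monomers. Fish lenses are rich in gamma M crystallins, a methionine-rich type. Lens fibre cells also carry aquaporin 0 (mip) and the intrinsic membrane protein lim2, and their beaded filaments are built from bfsp proteins. The zebrafish lens forms from the surface ectoderm over the optic cup, and crystallin transcripts accumulate as its first fibre cells elongate.

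Values are log2 ratios of morphant over wild type with the moderated standard error (SE) over 3 arrays. The test was limma's moderated test against 0 with Benjamini-Hochberg adjustment over 25065 tested probes and a threshold of 0.05. "Rose" and "fell" are used only of genes past it. Tested probes had a signal well above background in either group on each of the 3 arrays, and a gene is given by its brightest tested probe. Levels are normalized log2 intensities of a channel, and levels of different probes are not set against each other. Where levels of the groups are said not to overlap, that is a description. The share of all named genes without overlap was not counted. In whole embryos, fewer lens cells and less RNA per cell cannot be told apart.

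The number of probes well above background on an array ran from 28477 to 31372 for morphant RNA and from 28664 to 30836 for wild-type RNA. On replicate 1, alone on slide 1, 7.49% of spots were marked as outliers, against 0.915% and 0.909% on replicates 2 and 3, which shared slide 2. None of the member spots was marked (0 of them on the 3 arrays) and 0 were saturated. Log2 ratios over all tested probes correlated between arrays with r from 0.818 to 0.851.

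Of the 41 lens genes, 26 could be tested, of which 10 rose, 5 fell and 11 did not pass. The rises took in 2 alpha genes, 5 beta genes and the gamma gene crygn2, and the falls took in 3 gamma genes and crybgx. The remaining fall, lim2.5, was well above background only in wild-type channels, so its direction is partly fixed by the filter. With both channels required to be above background, 4 falls were left. The called share was 57.7%, against 41.3% of all 9226 tested named genes. The share that rose was 38.5% against 19.3% of named genes, and the share that fell was 19.2% against 22.0%. The median log2 ratio of the 26 genes was 0.13, with -0.00067 over all named genes. Above 0 on all 3 arrays were 13 of the 26, or below 0 on all 3 in 5 cases; over named genes these shares were 33.9% and 34.2%. Counted by probe, 23 of 34 tested member probes passed, where 37.6% of all tested probes did.

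Both calls and sizes depended on the scaling of the arrays. With median centring in place of intensity-dependent loess, the median of all named genes moved to 0.13, the share of named genes called fell to 2.87%, and of the member calls 1 of 10 rises (cryba1b, adjusted p = 0.0486) and 0 of 5 falls still passed. The signs of all 15 called genes were the same under both scalings, the 5 falls included. With Agilent's own log ratio all 15 calls held and the dim probes gave larger sizes. Among them were cryaa at 1.92, cryabb at 1.03, cryba1l2 at 0.84, lim2.4 at 0.90, bfsp2 at 0.76, crygm3 at -1.64 and crygs4 at -0.85. For lim2.5 the value was -2.22, a ratio to a morphant signal that was not well above background on any array.

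**Figure D1:**
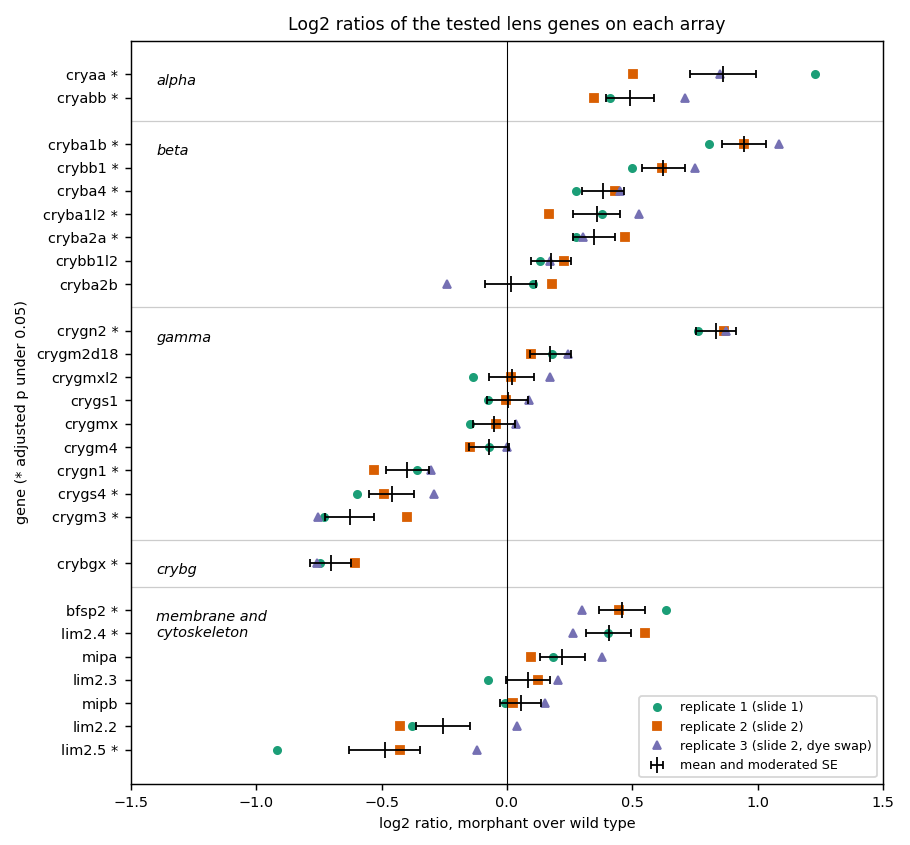
Log2 ratio of morphant over wild type (x axis) for each of the 26 tested lens genes (y axis), grouped by class. Coloured symbols are the 3 arrays, the black bar is the mean with its moderated SE, and a star marks an adjusted p under 0.05. Alpha and beta genes lie at or to the right of 0 apart from cryba2b on replicate 3, while gamma genes spread to both sides, from crygm3 at -0.63 to crygn2 at 0.83.

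Transcripts of 2 alpha crystallin genes were higher in morphants. These were both of the tested alpha genes, where 19.3% of all named genes rose, and the third, cryaba, was not tested. The cryaa probe, for the alpha A chaperone of the lens, had morphant levels of 8.02, 7.29 and 7.34 on replicates 1, 2 and 3, and wild-type levels of 6.79, 6.79 and 6.49. Every morphant level lay above every wild-type level, and the ratio was largest on replicate 1 (1.23, against 0.50 and 0.85). The mean was 0.86 (SE 0.13, n = 3, 1.82-fold, limma adjusted p = 0.00178).

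The second alpha gene, cryabb, is one of a pair of alpha B genes in zebrafish and is also used outside the lens. Its morphant levels were 7.63, 7.36 and 7.49 and its wild-type levels 7.22, 7.01 and 6.78, again without overlap. It rose by 0.49 (SE 0.10, n = 3, 1.40-fold, limma adjusted p = 0.00580). Second probes of both genes were too dim to be tested. On that of cryaa the ratios were 0.10, 0.08 and 0.28, and on that of cryabb they were 0.03, -0.24 and 0.22. The size of the alpha rise therefore rests on 1 probe per gene, and for cryabb its direction does too. The probe of cryaba was well above background in 1 wild-type channel of 3 and in 0 morphant channels, with ratios between -0.19 and -0.12.

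Alpha crystallins belong to the small heat shock proteins, of which 7 further genes were tested. Of these 3 rose, 2 fell and 2 did not pass. The shares were 42.9% higher and 28.6% lower, against 19.3% and 22.0% of all named genes. The group median was -0.18, with 0.48, -0.30 and -0.18 on replicates 1, 2 and 3, so its sign differed between arrays. Rises were measured for hspb8 at 0.95 (SE 0.09, second probe 1.72), a co-chaperone in the clearance of misfolded proteins, for hspb7 at 0.91 (SE 0.08), a heart and muscle protein, and for hspb3 at 0.41 (SE 0.08). By contrast hspb1, which encodes the widely expressed stress chaperone Hsp27, fell by 0.47 (SE 0.09), and hspb15 fell by 0.34 (SE 0.09).

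Among beta crystallins, 5 of 7 tested genes rose (71.4%, against 19.3% of all named genes) and 0 fell. The class median was 0.36, and it was 0.27, 0.43 and 0.45 on replicates 1, 2 and 3. The gene crybgx also has a cryb symbol but is kept apart from this class. Its fall (-0.70) is therefore in neither the count nor the median. Among the rises was cryba1b, one of the zebrafish beta A1 crystallins. Its morphant levels were 12.38, 12.10 and 12.27 and its wild-type levels 11.58, 11.15 and 11.18. The groups did not overlap, and each array gave a similar ratio (0.81, 0.95 and 1.09). It rose by 0.95 (SE 0.09, n = 3, 1.93-fold, limma adjusted p = 1.67e-04), which placed it at the 98.2 percentile of log2 ratios among tested named genes.

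The beta B1 gene crybb1 had morphant levels of 8.89, 9.17 and 9.28 and wild-type levels of 8.39, 8.55 and 8.53. It rose by 0.62 (SE 0.09, n = 3, 1.54-fold, limma adjusted p = 0.00111). All 4 of its probes were tested and all passed, with log2 ratios between 0.55 and 0.63 over mean log2 intensities from 7.20 to 8.79. Its neighbour in the RefSeq gene order is cryba4, a beta A4 crystallin, which rose by 0.38 (SE 0.08, adjusted p = 0.00873). The ratios of cryba4 on the 3 arrays were 0.27, 0.43 and 0.45, and a second, dimmer probe gave 0.46 (SE 0.10, adjusted p = 0.00875). Its levels overlapped between the groups, with a lowest morphant level of 11.36 and a highest wild-type level of 11.46 on the brightest probe.

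The beta A2 pair differed in its values. For cryba2a the ratios were 0.27, 0.47 and 0.30, and the gene rose by 0.35 (SE 0.08, adjusted p = 0.0139). All 4 tested cryba2a probes passed, with means from 0.33 to 0.41. Another cryba2a probe was not well above background on replicate 2, where its levels were 6.69 (morphant) and 6.49 (wild type) against 8.98 and 8.62 on replicate 1. That probe was not tested, and its ratios of 0.36, 0.21 and 0.14 were also above 0. The paralog cryba2b had ratios of 0.10, 0.18 and -0.24, with a mean of 0.01 (SE 0.10, adjusted p = 0.927). The difference between the paralogs was not tested.

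Of the remaining beta genes, cryba1l2 rose by 0.36 (SE 0.09, adjusted p = 0.0197), with ratios of 0.38, 0.17 and 0.53. Its levels overlapped between the groups, with a lowest morphant level of 6.99 and a highest wild-type level of 7.03. Next to cryba1l2 in the gene order lies crybb1l2, with a log2 ratio of 0.18 (SE 0.08, adjusted p = 0.116), above 0 on all 3 arrays. Neither crybb2 nor crybb1l3 was bright enough to be tested. The ratios of crybb2 were below 0 on all arrays (-0.30, -0.39 and -0.09), and those of crybb1l3 were -0.01, 0.04 and 0.05. Some of these smaller rises did not hold with fewer arrays. The call of cryba2a ended without replicate 2 (0.29, adjusted p = 0.105) and without replicate 3 (0.37, adjusted p = 0.0554). For cryba4 the same 2 replicates ended it (0.36, adjusted p = 0.0514 without replicate 2 and 0.35, adjusted p = 0.0583 without replicate 3), and for cryba1l2 replicate 3 did (0.27, adjusted p = 0.115).

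**Figure D2:**
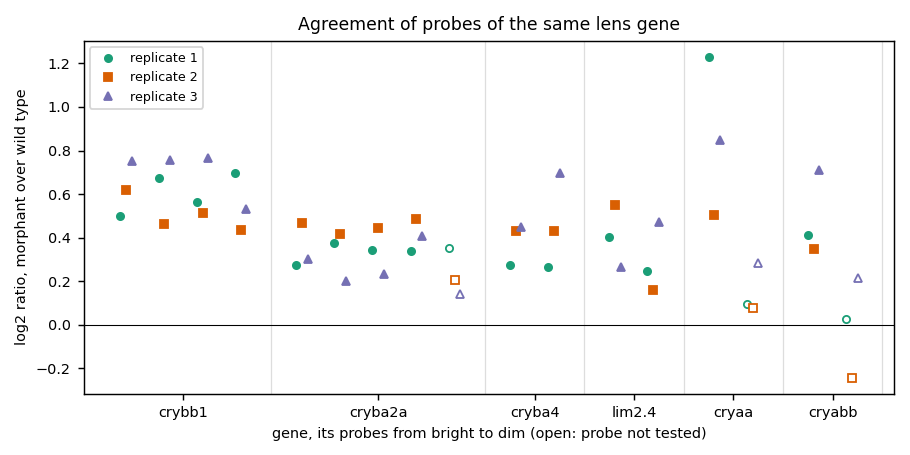
Log2 ratio of morphant over wild type (y axis) for every probe of the 6 lens genes with several probes (x axis, from bright to dim within a gene). Each symbol is an array, and open symbols belong to probes that were not tested. The 4 crybb1 probes and the 4 tested cryba2a probes lie above 0 on each array, and the untested dim probes of cryaa and cryabb lie closer to 0 than the tested ones.

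Of 20 gamma crystallin genes on the array 9 were tested, and of these 1 rose, 3 fell and 5 did not pass. The called share of 44.4% was near the 41.3% of all named genes, so the count alone does not set the class apart. By direction the shares were 11.1% higher and 33.3% lower, against 19.3% and 22.0% of all named genes. That difference was not tested. The class median was -0.05, with -0.13, -0.04 and 0.04 on replicates 1, 2 and 3, so its sign differed between arrays. With median centring the class median was 0.03, where the median of all named genes was itself 0.13. The other 11 gamma genes were not well above background in any channel of any array, and their levels lay between 5.89 and 6.43.

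The gamma N pair had opposite signs. Gamma N crystallins have features of both the beta and the gamma families. The crygn2 probe had morphant levels of 10.64, 10.93 and 10.97 and wild-type levels of 9.87, 10.06 and 10.10. Every morphant level was higher, and the ratios of 0.76, 0.87 and 0.88 had the smallest spread among the called crystallins (SD 0.06). It rose by 0.83 (SE 0.08, n = 3, 1.78-fold, limma adjusted p = 1.93e-04). For crygn1 the morphant levels were 6.90, 6.94 and 7.24 and the wild-type levels 7.26, 7.48 and 7.54, so the lowest wild-type level was just above the highest morphant level. It fell by 0.40 (SE 0.09, n = 3, limma adjusted p = 0.00860), and with replicate 2 left out it did not pass (-0.33, adjusted p = 0.0670). The crygn1 probe was dim, and an offset in the background correction can draw dim ratios toward 0. The value was -0.53 with an offset of 16, -0.40 with no background correction and -0.78 with Agilent's own log ratio. Agilent's ratio differs from the main fit in more than the offset.

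Gamma M genes are the largest group of crystallin genes in zebrafish, with 35 in the RefSeq table and 14 on the array. Of the 5 that were tested, 0 rose, 1 fell and 4 did not pass. Over all named genes 19.3% rose and 22.0% fell, so this count does not set the gamma M group apart. The one that fell was crygm3, with morphant levels of 6.35, 6.75 and 6.70 and wild-type levels of 7.08, 7.15 and 7.45, which did not overlap. Its ratios were -0.73, -0.40 and -0.75, a fall of 0.63 on the log2 scale (SE 0.10, n = 3, limma adjusted p = 0.00192). The others were crygm2d18 at 0.17 (SE 0.08, adjusted p = 0.131), crygm4 at -0.07 (adjusted p = 0.524), crygmx at -0.05 (adjusted p = 0.654) and crygmxl2 at 0.02 (adjusted p = 0.893). The last pair are neighbours in the gene order. The crygm4 probe was well above background in 2 morphant and 3 wild-type channels. It was not tested where both channels were required to be above background.

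Gamma S crystallins, in mammals the gamma type of the later lens fibres, held 4 genes on the array. Here crygs4 fell, with morphant levels of 7.11, 7.11 and 7.35 against wild-type levels of 7.70, 7.60 and 7.64. No morphant level reached a wild-type level, and the fall was 0.46 on the log2 scale (SE 0.09, n = 3, limma adjusted p = 0.00574). For crygs1 the ratios were -0.08, -0.003 and 0.09, with a mean of 0.0028 (adjusted p = 0.982). The genes crygs2 and crygs3 were at background.

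Most gamma M genes lie in an unbroken run in the RefSeq gene order, from crygm2c to crygs3, with 31 protein-coding genes that are all gamma crystallins. The array held 11 of them and 3 were tested: crygm2d18, crygm3 and crygs4. The pair that fell, crygm3 and crygs4, are next to each other in the run, and their neighbours crygm5 and crygs3 were at background. As all genes of the run are gamma crystallins, a probe may also bind transcripts of other genes in it. How alike their sequences are was not examined, and such binding was not tested.

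**Figure D3:**
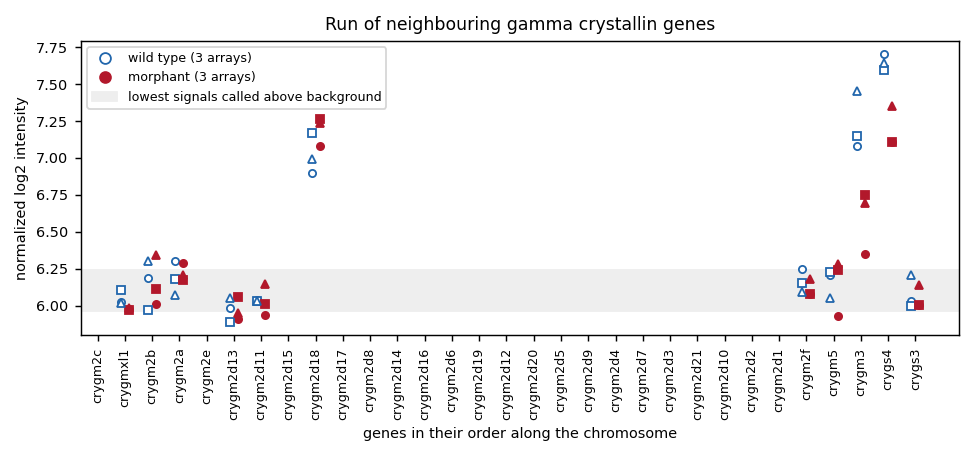
Normalized log2 intensity (y axis) of the 11 measured genes in the run of 31 neighbouring gamma crystallin genes, placed in gene order (x axis). Open blue symbols are wild-type and filled red symbols morphant channels of 3 arrays, and the grey band spans the lowest signals called well above background. The symbols of crygm2d18, crygm3 and crygs4 lie above the band, those of the other measured genes in or near it, and the morphant levels of crygm3 and crygs4 lie under their wild-type levels.

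The gene crybgx, named for a crystallin with the beta and gamma fold, is kept apart from the beta class here. Its morphant levels were 9.63, 9.69 and 9.59 and its wild-type levels 10.37, 10.30 and 10.34. The groups were far apart relative to their spread, with ratios of -0.74, -0.61 and -0.76. It fell by 0.70 (SE 0.08, n = 3, limma adjusted p = 4.96e-04).

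**Figure D4:**
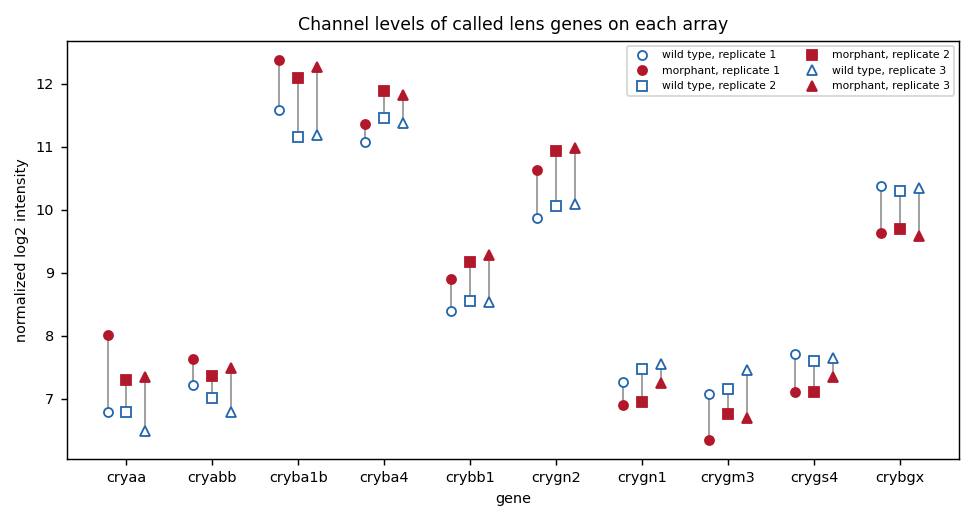
Normalized log2 intensity (y axis) of 10 called crystallin genes (x axis) in the wild-type channel (open blue) and the morphant channel (filled red). Grey lines join the channels of an array and the symbol shape gives the replicate. In the first 6 genes the morphant symbol is the upper one on every array, and in crygn1, crygm3, crygs4 and crybgx the lower one.

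Of 7 tested genes for lens membranes and cytoskeleton, 2 rose, 1 fell and 4 did not pass, with a median of 0.08. The fall, in lim2.5, was measured on a probe at background in morphants. The called share, 42.9%, was close to that of all named genes (41.3%). The gene bfsp2 encodes phakinin, a beaded filament protein of lens fibres. Its morphant levels were 7.70, 7.83 and 7.74 and its wild-type levels 7.06, 7.38 and 7.43, without overlap. It rose by 0.46 (SE 0.09, n = 3, limma adjusted p = 0.00625).

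Genes of the lim2 family, relatives of a fibre membrane protein, did not move as one. For lim2.4 the morphant levels were 7.52, 7.26 and 7.18 and the wild-type levels 7.11, 6.71 and 6.91, without overlap. It rose by 0.41 (SE 0.09, n = 3, limma adjusted p = 0.00914), a second probe gave 0.29 (SE 0.09, adjusted p = 0.0374), and without replicate 2 the call ended (0.33, adjusted p = 0.0678). The lim2.5 probe was not well above background in any of the 3 morphant channels, with levels of 5.83, 6.12 and 6.48 against wild-type levels of 6.74, 6.55 and 6.60. The limma test of its measured ratio gave an adjusted p of 0.0280. With morphant signals raised to a floor, its mean was 1.33-fold lower in morphants, which was not itself tested. That value is not a strict bound. On replicate 3 the morphant level of 6.48 lay above the floor of 6.24 and was still not well above background. The probe entered the test only through the wild-type channel, so its direction is partly fixed by the filter on dim probes. With both channels required to be above background it was not tested, and 4 falls were left among the members. For the 1.33-fold value the wild-type mean was divided by the morphant mean. Each morphant signal was first raised to at least the lowest one called well above background on its array. Dye bias may enter that value since the dyes are not balanced over 3 arrays. The lim2.5 ratio was -0.92 on replicate 1 and -0.43 and -0.12 on the others, and without replicate 1 the call ended (adjusted p = 0.0615), as it did with a dye term (adjusted p = 0.0715). The values for lim2.2 (-0.26, adjusted p = 0.0997) and lim2.3 (0.08, adjusted p = 0.488) did not pass. The lim2.2 fall did pass in 3 other settings. It was -0.29 with slide as a block (adjusted p = 0.0232) and -0.44 by Agilent's log ratio (adjusted p = 0.0412). When replicate 3 was left out it was -0.40 (adjusted p = 0.0368).

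The aquaporin 0 genes were measurable and neither passed. The mipa probe, the brightest of this group, had morphant levels of 8.25, 7.92 and 8.18 and wild-type levels of 8.06, 7.82 and 7.80, which overlap. Its log2 ratio was 0.22 (SE 0.09, n = 3, limma adjusted p = 0.0864), above 0 on all 3 arrays. For mipb the value was 0.06 (SE 0.08, adjusted p = 0.631). The gene lgsn, for the lens protein lengsin, was at background in every channel.

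Set side by side, the tested alpha genes had a median of 0.68, the beta genes (without crybgx) 0.36 and the gamma genes -0.05. The alpha medians on replicates 1, 2 and 3 were 0.82, 0.43 and 0.78 and lay above the gamma medians on each array, as did the beta medians. The difference between classes was not tested, since the genes of a class are not replicates and an alpha value rests on 2 genes.

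Of 21 tested regulators of lens formation 3 rose, 7 fell and 11 did not pass, with a median of -0.10. These shares, 14.3% higher and 33.3% lower, stand beside 19.3% and 22.0% of all named genes, and the difference was not tested. The largest fall was in six7, a homeobox gene of the eye field and later of cone photoreceptors, at -1.99 (SE 0.08, adjusted p = 4.84e-06), although a second probe gave -0.55. The bZIP gene mafba fell by 0.57 (SE 0.12, second probe -0.43), sox1b, from a family needed for gamma crystallin expression in the mouse lens, fell by 0.53 (SE 0.12), and gata3 fell by 0.45 (SE 0.08). Rises were measured for zeb2a (0.39), mab21l1 (0.37, second probe 0.11) and mafaa (0.34). The values for foxe3 (0.00052), a regulator of lens epithelium, and for pax6a (-0.10), pax6b (0.06) and prox1a (-0.08) did not pass.

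Other genes of lens fibres and epithelium had 1 rise and 6 falls among 16 tested, with a median of -0.03. The called share was 43.8%, against 41.3% of all named genes. By direction the shares were 6.25% higher and 37.5% lower, against 19.3% and 22.0% of all named genes, and the difference was not tested. The rise was in vim, for the intermediate filament vimentin (0.51, SE 0.08, second probe 1.04), which many embryonic tissues also express. Falls were largest in caprin2 (-1.27, SE 0.08, adjusted p = 2.37e-05), an RNA-binding protein gene, and in grifin, a galectin-related lens protein (-0.62, SE 0.13, with -1.05, -0.41 and -0.39 on the 3 arrays). The gene spag1a fell by 0.38 (SE 0.11) and tgfbi by 0.38 (SE 0.08, second probe -0.05). As the RNA was of whole embryos, these falls may also include transcripts of other tissues, which was not examined. The lens connexin gene gja8b, at 0.18 (adjusted p = 0.130), and the fish lens nuclease gene dnase1l1l, at 0.15 (adjusted p = 0.239), did not pass. The enzyme genes with crystallin names had 1 rise, crym (0.36, SE 0.09), among 2 tested (50%, against 19.3% of all named genes).

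Some markers of other tissues also differed between the groups, where 19.3% of all named genes rose and 22.0% fell. Of 15 tested genes of retina and retinal pigment epithelium 3 rose (20.0%) and 5 fell (33.3%), with a median of -0.14. Their called share was 53.3%, against 41.3% of all named genes, and the difference was not tested. The falls included rlbp1b (-1.60, second probe -0.52), rx3 (-1.45), rx2 (-0.60) and rpe65a (-0.44), and the rises otx5 (0.64, second probe -0.10), mitfa (0.52) and rpe65b (0.28). Pigment genes had 5 rises (71.4%) and 0 falls among 7, with a median of 0.31, led by pmela (0.55), trpm1b (0.44), slc45a2 (0.39) and dct (0.31). Genes of differentiated skeletal muscle had 8 rises (72.7%) and 0 falls among 11, with a median of 0.40. The largest were acta1a (1.18), desma (0.80), acta1b (0.77) and smyhc1 (0.60), with second probes of -0.41 for acta1b and -0.20 for smyhc1. The pigment and muscle shares were not tested against those of all named genes. These lists were chosen with earlier results of these data known. Alpha and beta crystallin rises stood beside rises of the listed pigment and muscle genes in the same RNA. The part of tissue makeup or of developmental stage in the crystallin values was not tested.

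**Figure D5:**
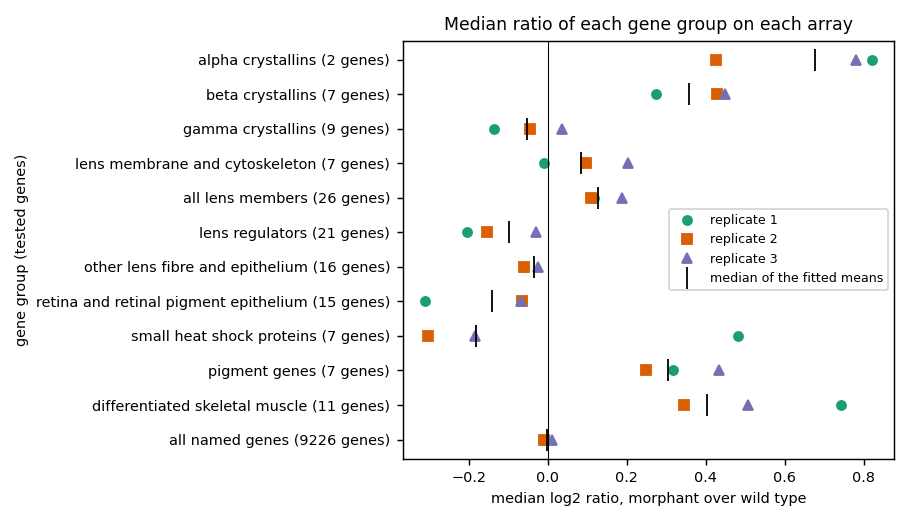
Median log2 ratio of morphant over wild type (x axis) of each gene group (y axis, with the number of tested genes), on each of the 3 arrays as coloured symbols and over the fitted means as a black bar. Alpha and beta crystallins, pigment and muscle genes lie right of 0 on all arrays, and lens regulators and retina genes lie left of it. Gamma crystallins, small heat shock proteins and lens membrane and cytoskeleton genes lie on both sides.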

How the data were processed

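The authors quantified each array with Agilent Feature Extraction, version 10.5.1.1 per the file headers and 8.5.1.1 per the submitters' processing notes. Per the file headers, the deposited files give median and background intensity for both dyes, processed intensities, a log10 ratio of red over green and its p-value per spot, which was not used. The deposited value table held the same log10 ratios, with replicate 3 turned (largest difference 4.95e-06) and each column's median at 0. Which dye was morphant, and so the sign of all ratios, comes from the labels.

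From the median intensities, background was corrected by normexp (offset 50), ratios were loess-normalized within arrays, and replicate 3 was turned, in limma 3.58.1 (R 4.3.3). Control and marked spots had weight 0. Of 43603 probes 28687 passed the filter, and 25065 also had unmarked spots on all 3 arrays. Channel levels followed Aquantile normalization. Unversioned accessions named 16770 probes through a RefSeq table of assembly GRCz12tu, and 26833 stayed unnamed. Because the headers give another build, only gene names and gene order were taken from that table. Each probe was tested with lmFit and eBayes. With 3 arrays, 2 residual degrees of freedom remain per probe, and their number limits the precision. The fit was also run on simulated ratios with known changes but no dye, slide or intensity effects, so that run does not test the scaling.

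Full values are given for the 12 called members of largest absolute log2 ratio and the brightest of each class, and from each list up to 4 called genes per direction, with a few named outside this rule after their values were seen (the remaining members, foxe3, pax6a, pax6b, prox1a, gja8b, dnase1l1l). Members and lists were chosen with earlier results of these data known.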

Additional observations from a re-analysis of the deposited data

How the results depend on the processing

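Settings were compared over 13 alternatives. None of them (0) turned the sign of a called member. All 15 calls held with no background correction, an offset of 16, Agilent's log ratio, no filter on dim probes, marked spots kept, slide as a block and the mean of all probes. Requiring both channels above background left lim2.5 untested and kept the other calls. The dye term ended only the lim2.5 call, and 1, 4 and 3 calls ended without replicates 1, 2 and 3. Median centring ended the most calls: 715 probes passed, with 1 member rise and 0 falls. The beta median was 0.49 and the gamma median 0.029, which is the value of crygmx (-0.05 by loess). Under that centring the median of all named genes was itself 0.13, against -0.00067 by loess. The cause of these changes was not tested. The alpha median was 0.91 with an offset of 16 and 1.47 with Agilent's log ratio, where the beta median was 0.48. With no filter on dim probes, where cryaba is counted too, the alpha median was 0.49. Without replicates 1, 2 and 3 it was 0.60, 0.80 and 0.62. Leaving out 1 replicate gave 6287 to 9367 called probes. The lim2.2 value passed in 3 settings. Values near 0 changed sign in some settings without a call. With a replicate left out, cryba2b ran from -0.068 to 0.14, crygmxl2 from -0.058 to 0.095 and crygs1 from -0.040 to 0.042. For crygs1 the value was -0.0024 with no background correction, -0.024 with Agilent's log ratio and -0.017 with slide as a block, where crygmxl2 was -0.020. For cryba2b it was -0.025 with Agilent's log ratio and -0.049 with a dye term. The test is itself paired, since each array holds a morphant and a wild-type pool as a ratio, so no further replicate block was fitted. The mean of all probes gives no count of probes. Depth is limited by signal: 15 of 41 members were too dim to test.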
